A study of Rattus norvegicus with 24 samples.

Results

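The CC chemokine ligands are small secreted proteins that draw leukocytes into tissue through receptors of the Ccr family. Here they are the ligands Ccl2, Ccl3, Ccl4, Ccl5, Ccl6, Ccl7, Ccl9, Ccl17, Ccl20 and Ccl22. Members were the non-control probes whose gene name in the scanner files, with any suffix removed, was one of these 10 symbols. The rule found 12 probes of 9 genes among 8453 distinct probes on the array. Ccl4 was not found under its symbol, but 5 custom probes named by a transcript identifier belonged to it, and their values are given beside those of the members. In skin, macrophages, dendritic cells, T lymphocytes and keratinocytes can all make such ligands. Ccl3 and Ccl5 act on Ccr1, as do the rodent ligands Ccl6 and Ccl9. Ccl2 is the main ligand of Ccr2, Ccl17 and Ccl22 share the receptor Ccr4, and Ccl20 is the ligand of Ccr6.

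The samples were paw skin explants of 12 male BN rats aged 15 weeks, and 2 explants of each rat were compared. One explant was cultured for 3 days with 1000000 syngeneic lymphocytes of BN origin, and the other with the same number of allogeneic PVG lymphocytes that had been pre-stimulated. The lymphocytes of both strains came from a mixed lymphocyte reaction (MLR) of 7 days with irradiated BN splenocytes, so that the control explants were also exposed to cultured lymphocytes. The explants were washed before freezing, and RNA was taken from the explant as a whole, so that skin cells and any lymphocytes still in it were measured together. The RNA of both explants was hybridized to 1 two-color array and, with the dyes exchanged, to a second array, which makes 24 arrays and n = 12 rats. The 3 slides held 4 rats each.

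The probes whose results are described first are shown here as deposited, since each value below is the signal at such a 60-base oligonucleotide. Capitals mark a run of at least 10 bases that a probe shares with a probe of another member gene. Positions are those of the file headers, build rn3.
Ccl9 probe 1 (A_42_P560084), chr10:71660419-71660478, minus strand: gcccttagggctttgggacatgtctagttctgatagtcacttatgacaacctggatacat
Ccl9 probe 2 (A_43_P22206), chr10:71661109-71661165, minus strand: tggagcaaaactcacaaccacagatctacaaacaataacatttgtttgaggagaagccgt
Ccl6 probe (A_43_P16707), chr10:71674604-71674663, minus strand: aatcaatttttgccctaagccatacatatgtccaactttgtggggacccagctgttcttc
Ccl3 probe 1 (A_42_P714311), chr10:71758981-71759040, minus strand: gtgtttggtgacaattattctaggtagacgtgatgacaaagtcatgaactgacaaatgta
Ccl3 probe 2 (A_43_P11666), chr10:71759338-71759397, minus strand: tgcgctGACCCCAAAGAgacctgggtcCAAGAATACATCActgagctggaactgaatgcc
Ccl5 probe (A_43_P12521), chr10:71620417-71620476, minus strand: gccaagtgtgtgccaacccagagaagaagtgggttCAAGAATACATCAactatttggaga
Ccl22 probe (A_43_P15900), chr19:10702397-10702456, minus strand: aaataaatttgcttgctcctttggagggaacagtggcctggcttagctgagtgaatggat
Ccl17 probe (A_43_P13049), chr19:10646207-10646266, minus strand: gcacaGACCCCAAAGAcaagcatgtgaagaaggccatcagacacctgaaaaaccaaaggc
Ccl3 probe 2 shared a run of 13 bases with the Ccl5 probe and one of 11 bases with the Ccl17 probe. Read on the same strand, other pairs of probes of different member genes had at most 7 bases in a row in common. The listed position of Ccl9 probe 2 covers 57 bases, although the probe has 60. The exon structure around the probes was not analysed here.

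The members lay in a few clusters. The probes of Ccl5, Ccl9, Ccl6 and Ccl3 spanned 139 kb of chromosome 10, and RefSeq (GRCr8) places Ccl4 next to Ccl3. The probes of Ccl2, at chr10:70271542-70271601, and of Ccl7 (probe 1, A_42_P755754, at chr10:70282514-70282573, and probe 2, A_44_P1022002, at chr10:70282297-70282356) were 11.0 kb apart at most on the plus strand of the same chromosome. The probes of Ccl17 and Ccl22 were within 56.2 kb on chromosome 19, and the Ccl20 probe (A_43_P11985) was at chr9:82626766-82626825 on the plus strand.

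All 12 member probes passed the filter on dim probes, in which all spots of a probe had to exceed background on 12 arrays or more in one of the samples. For 11 of the 12 this held on all 24 arrays in both samples, the exception being Ccl9 probe 2. Some arrays stood apart from the rest. The first array of rat 10 was far brighter than the others, with a median spot intensity of 6668 in Cy3 and 25642 in Cy5, against 135.5 to 216 and 269 to 415 on the other arrays. Its log ratios had a correlation of 0.133 over all probes with those of the second array of the same rat. Low correlations between the 2 arrays of a rat were also found in rats 3 (0.201), 6 (0.264) and 2 (0.304). In the remaining rats they were 0.617 or higher. Rat 8 had correlations of only 0.0998 to 0.241 with the other rats, which among themselves reached 0.285 to 0.823, although its own arrays had a correlation of 0.944. Both rats were kept, and the results without them are given where they differ.

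Of the 12 member probes, 7 were lower in the allogeneic sample and 0 were higher at an adjusted p under 0.05 (limma with Benjamini-Hochberg adjustment over 8453 probes, n = 12 rats). Over all probes, 8.48% were lower and 17.3% changed in either direction. By gene, with the mean over a gene's probes, Ccl3, Ccl5, Ccl6, Ccl9 and Ccl22 were lower and 4 of the 9 genes passed the test in neither direction, against 7.60% of 7250 genes that were lower and 16.3% that changed. The median log2 ratio was -0.31 over the 9 genes and 0.01 over all genes. The log2 ratios are allogeneic over syngeneic according to the dye labels of the samples and the methods. This direction is opposite to that of the study's tables and of its quantitative PCR on some of the same samples. With the sign turned, each lower value here reads as a higher one, but the sizes need not be equal. The study lists Ccl9 and Ccl6 among its most strongly up-regulated genes, with log2 changes larger in size than those here. Its quantitative PCR measured genes of the major histocompatibility and natural killer complexes and Cd3z, and none of the members. All selected genes but RT1-CE10 had the direction of the study's array in it. Aif1, at -1.27 here, rose there, in independent rat explants and in diseased skin of transplanted rats. Which of the directions holds was not settled here, so that "lower", "lowered", "reduced" and "higher" below stand for the sample as its dye label names it. Of the member probes, 5 were below 0 in all 12 rats, as were 3.55% of all probes. The member genes below 0 numbered between 6 and 9 of 9 in every rat, where the median over all genes in a rat was between 0.0015 and 0.024. The genes of a rat were read from the same explants and do not count as separate replicates.

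**Figure D1:**
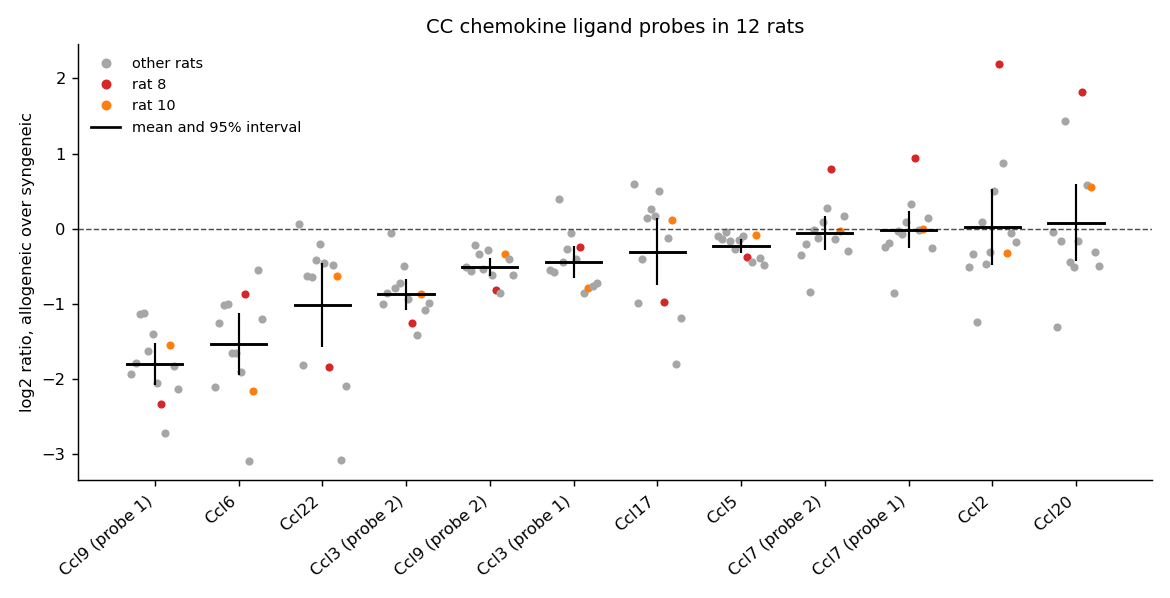
Log2 ratio of the allogeneic over the syngeneic explant (y axis) for the 12 member probes (x axis, ordered by mean), 1 point per rat (mean of its 2 arrays), with the mean and its 95% confidence interval in black. The points of both Ccl9 probes, Ccl6, Ccl5 and Ccl3 probe 2 all lie below 0, those of Ccl2, Ccl7 and Ccl20 lie on both sides, and rat 8 (red) is the highest point of Ccl2, Ccl7 and Ccl20.

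Ccl9, a ligand of Ccr1 made by macrophages, had the smallest p of the members. At probe 1 the log2 ratio was -2.72 in the lowest rat, -1.81 at the median and -1.13 in the highest rat. Every rat was thus well below 0. The mean was -1.80 ± 0.13 (SE, n = 12; 95% confidence interval -2.08 to -1.52; adjusted p = 6.59e-06, limma), which is 3.49-fold lower. Its mean log2 intensity, after quantile scaling of the average signal between arrays, was 9.56 ± 0.59 (SD) in the syngeneic and 7.75 ± 0.28 in the allogeneic explants. Probe 2 was also below 0 in every rat, at -0.86, -0.53 and -0.22 in the lowest, median and highest rat, with a mean of -0.51 ± 0.06 (adjusted p = 0.000114, limma). It was above background at all its spots on only 2 of 24 arrays for the allogeneic and 19 of 24 for the syngeneic sample. The median spot intensity of probe 2 was 77.6 in the allogeneic and 112 in the syngeneic explants over a local background of 62.0. Probe 2 passed the filter on dim probes through the syngeneic sample, where its signal was higher, and its ratio is limited by the background and by the offset of 50 added to all signals. Without it, 6 of 11 member probes were lower and 4 of these 11 were below 0 in every rat. With the offset left out and nothing else changed, probe 1 gave -2.13 and probe 2 gave -1.35. With the scanner software's processed signals, which differ in background and in dye normalization, they gave -2.22 and -2.45. The probes are therefore not ranked against each other. On the bright array of rat 10, probe 1 read -0.41 and probe 2 read 0.35, where the second array of the same rat gave -2.68 and -1.03. With that array left out, the means were -1.90 and -0.57.

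Ccl6, a second Ccr1 ligand and a neighbor of Ccl9, was lowered as well. Its log2 ratio was -3.09 in rat 9, -1.45 at the median and -0.55 in rat 11, so that all 12 rats were below 0. The mean was -1.54 ± 0.19 (SE; 95% confidence interval -1.95 to -1.13; adjusted p = 0.000203, limma), which is 2.91-fold lower. The log2 intensity ranged from 13.7 to 16.0 in the syngeneic and from 11.5 to 14.0 in the allogeneic explants. These ranges overlapped through rat 10 alone, the rat with the bright array, since without it the syngeneic levels began at 14.2 and the allogeneic levels ended at 13.95. The spread over rats was wide, with an SD of 0.70, larger than that of 97.1% of all probes, while the 2 arrays of a rat differed with an SD of 0.18.

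Ccl3, also called macrophage inflammatory protein 1-alpha, was lower at both probes. Probe 1 gave -0.86, -0.50 and 0.39 in the lowest, median and highest rat, and 11 of 12 rats were below 0. Its mean was -0.44 ± 0.10 (adjusted p = 0.00760, limma). Probe 2 gave -1.42, -0.90 and -0.05, with all 12 rats below 0 and a mean of -0.88 ± 0.10 (adjusted p = 0.000115, limma). At both probes rat 9 was the lowest and rat 3 the highest. Probe 1 was less reduced than probe 2 in 12 of 12 rats (mean difference 0.43 ± 0.23, SD; p = 0.000488 by an exact two-sided permutation of signs, the smallest p that 12 rats allow). The reading at probe 1 also depended on the dye: with only the arrays that held the allogeneic sample in Cy5 it was -0.21 (adjusted p = 0.138, limma).

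Ccl5, also called RANTES and made by activated T and NK cells among others, had a small change. The values were -0.48, -0.15 and -0.05 in the lowest, median and highest rat, and all 12 rats were below 0 in the mean of their arrays. On the single arrays with the allogeneic sample in Cy5, rats 2, 3 and 10 read above 0 (0.04, 0.03 and 0.22). The mean was -0.23 ± 0.04 (adjusted p = 0.00332, limma), which is 1.17-fold lower. Without the offset added here the mean was -0.38, with the processed signals it was -0.40, and with only the arrays that held the allogeneic sample in Cy5 it was -0.13 (adjusted p = 0.115, limma). The median spot intensity was 156 in the allogeneic and 171 in the syngeneic explants, so the probe was dim. Rat 10 stood far above the other rats in the scaled levels of Ccl5 in both samples.

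Ccl4, the neighbor of Ccl3 and its close relative, was read by 5 custom probes that are shifted against each other by 1 base, and so do not count as separate measurements. Their mean log2 ratios were between -0.04 and -0.01, and adjusted p-values were between 0.702 and 0.935 (limma). All 5 were above background on 24 of 24 arrays in the allogeneic sample. By gene, the ratio was -0.03 ± 0.07, with 7 of 12 rats below 0. Thus 4 of the 5 measured genes of this stretch of chromosome 10 passed the test and Ccl4 did not.

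Ccl22 and Ccl17 are the ligands of Ccr4 and are known from dendritic cells and macrophages. They were alike in which rats were low. The log2 ratio of Ccl22 was -3.07 in the lowest rat, -0.63 at the median and 0.06 in the highest, and 11 of 12 rats were below 0. The mean was -1.02 ± 0.26 (95% confidence interval -1.58 to -0.46; adjusted p = 0.0157, limma), which is 2.03-fold lower. Rats 11, 12, 8 and 2 stood apart with values from -3.07 to -1.82, whereas the other 8 rats had values from -0.65 to 0.06. The syngeneic log2 levels of these rats were 13.0, 11.9, 12.6 and 12.6, and the allogeneic ones were 9.93, 9.76, 10.8 and 10.8. Of the 8 other rats, only rat 9 had a syngeneic level over 12, at 12.7, and its allogeneic level was 12.2. Both arrays of a rat gave nearly the same value, with an SD of 0.12 between arrays against 0.95 between rats, which was larger than the SD of 99.7% of all probes. Leaving out any single rat kept the mean between -1.12 and -0.83.

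Ccl17 did not pass the test, with a mean of -0.31 ± 0.21 (adjusted p = 0.349, limma). The lowest rat had -1.80, the median was -0.01 and the highest rat had 0.59, and 6 of 12 rats were below 0. The 4 rats that were lowest for Ccl22 were also the 4 lowest for Ccl17, at -1.80 to -0.98, where the other 8 had -0.40 to 0.59. Over the 12 rats Pearson's r was 0.96 (permutation p adjusted over 36 pairs 0.00036) and Spearman's rho was 0.90 (adjusted permutation p = 0.00648). For Ccl22 the 4 low rats stood apart from the others, and a correlation over all rats partly reflects that gap. Without rats 11 and 12, the farthest from the median of Ccl17, r was 0.92, and after centering on each slide it was 0.96. Within the 8 other rats Pearson's r was 0.63 (exact permutation p = 0.0977) and Spearman's rho was 0.69 (exact p = 0.0694). These 8 rats were picked by their Ccl22 values, which narrows the range, so these p-values cannot decide whether the genes varied together. Ccl22 was lower than Ccl17 in 12 of 12 rats, by 0.71 on the log2 scale (exact p = 0.000488, adjusted over 36 pairs 0.00352).

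**Figure D2:**
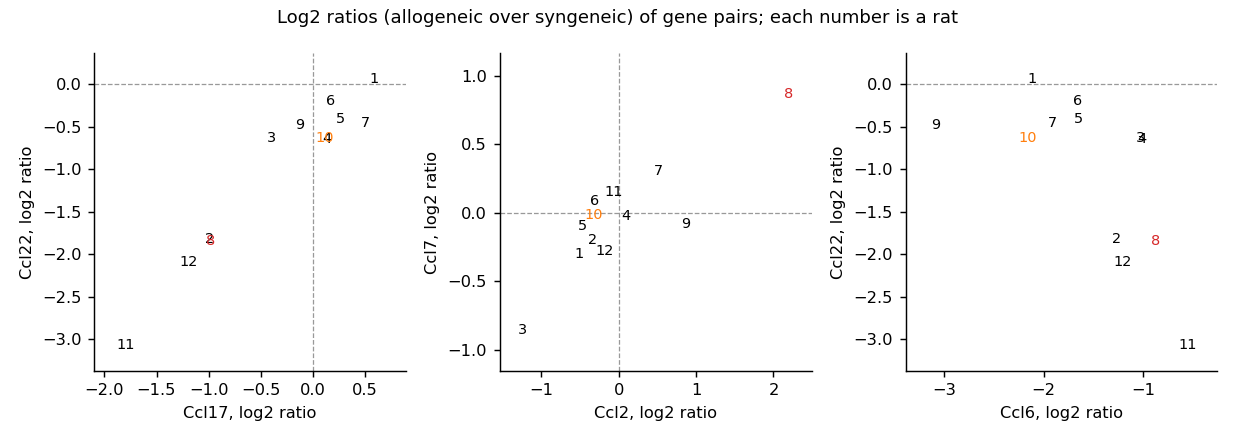
Log2 ratios (allogeneic over syngeneic) of 2 genes against each other in 3 panels, with each rat shown by its number. Rats 2, 8, 11 and 12 are the lowest for both Ccl17 and Ccl22 (left), rat 3 is the lowest and rat 8 the highest for both Ccl2 and Ccl7 (middle), and these 4 rats have Ccl6 values between -1.26 and -0.55 (right).

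Ccl2 and Ccl7, the monocyte chemoattractants 1 and 3, did not pass the test. For Ccl2 the log2 ratio was -1.24 in rat 3, -0.25 at the median and 2.19 in rat 8, and 8 of 12 rats were below 0. The mean was 0.02 ± 0.23 (95% confidence interval -0.49 to 0.52; adjusted p = 0.969, limma), and without rat 8 it was -0.18 (adjusted p = 0.435, limma). In rat 8 the syngeneic log2 level of 10.3 was the lowest of the 12 rats, while the allogeneic level was 12.5. Both Ccl7 probes had values on either side of 0, with means of -0.01 ± 0.11 (probe 1, -0.85 in rat 3 to 0.93 in rat 8) and -0.06 ± 0.11 (probe 2, -0.85 to 0.79). The probes of Ccl7 agreed closely from rat to rat. Over the 12 rats Ccl2 and Ccl7 had a Pearson's r of 0.87 (permutation p = 0.00126, adjusted over 36 pairs 0.0227) and a Spearman's rho of 0.75 (permutation p = 0.00696, adjusted 0.125). Without rat 8, the highest for both genes, r was 0.71. Without rats 8 and 9, the farthest from the median of Ccl2, it was 0.89, and after centering on each slide it was 0.84. These genes are neighbors, and their ratios come from the same arrays.

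Ccl20, a ligand made by keratinocytes that draws Ccr6-bearing cells, did not pass the test. Its values were -1.30 in rat 2, -0.16 at the median and 1.82 in rat 8, with 8 of 12 rats below 0. The mean was 0.08 ± 0.24 (adjusted p = 0.862, limma), and without rat 8 it was -0.08 (adjusted p = 0.816, limma). The SD over rats of 0.88 was larger than that of 99.2% of all probes. The syngeneic level of rat 8, at 9.13, was again the lowest of the 12.

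**Figure D3:**
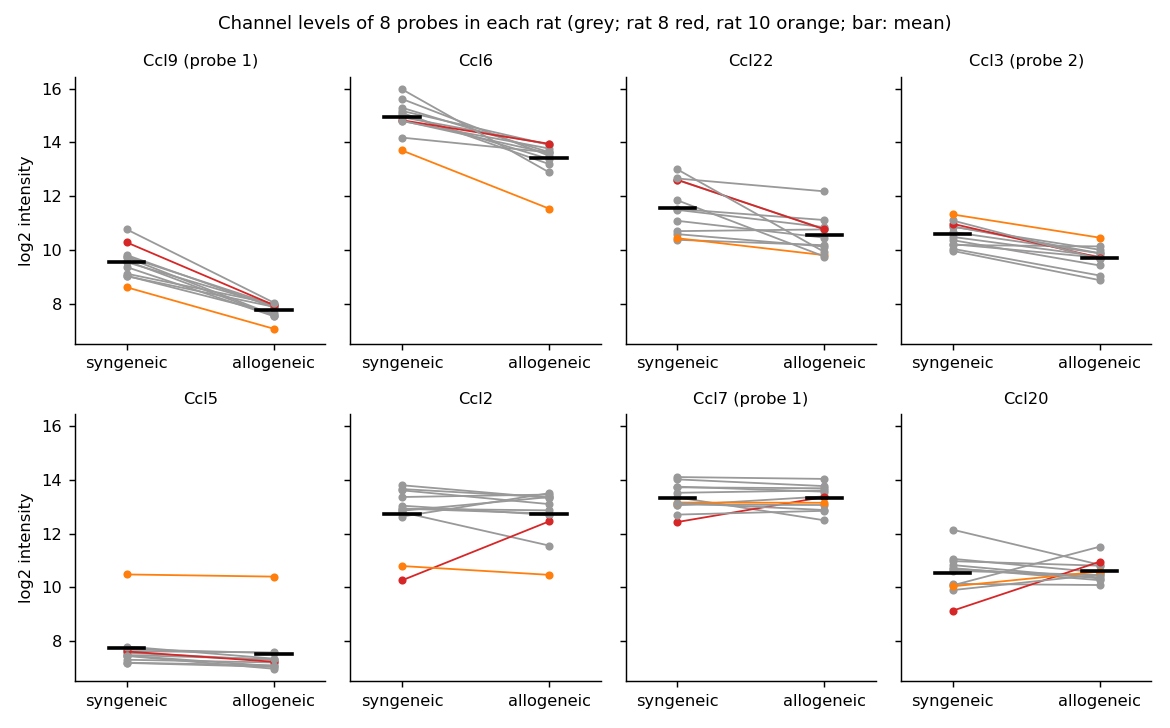
Log2 intensity in the syngeneic and the allogeneic explant (y axis) for 8 probes, with a line per rat (rat 8 red, rat 10 orange) and a black bar at the mean of each sample. The lines of Ccl9 and Ccl6 all fall, the Ccl5 lines are nearly flat with rat 10 far above the rest, and in rat 8 the lines of Ccl2 and Ccl20 rise from the lowest syngeneic level.

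The member genes were compared with each other within rats, in 36 pairs. The log2 ratios differed in 20 pairs (exact two-sided permutation of signs, adjusted p under 0.05 over the pairs), and in 6 of the 10 pairs among the 5 lowered genes. Ccl5 was less reduced than Ccl6, Ccl9, Ccl3 and Ccl22, but its probe was dim and the offset shrinks its ratio. Without the offset Ccl5 was at -0.38 and Ccl3 by gene at -0.69, and with the processed signals they were at -0.40 and -0.69. The pairs were not tested in these settings. Ccl9 was lower than Ccl3 in all 12 rats (difference 0.50, adjusted exact p = 0.00352), and Ccl6 was lower than Ccl3 in 11 of 12. By the gene means, some neighbors in the order of the means did not differ past the threshold: Ccl6 and Ccl9 differed by -0.39 (adjusted exact p = 0.102), Ccl9 and Ccl22 by -0.14 (0.675), and Ccl3 and Ccl22 by 0.36 (0.283). The means of Ccl6 and Ccl22, which are farther apart, did not differ past it either (-0.52, adjusted exact p = 0.337). The order of Ccl6, Ccl9 and Ccl22 depended on the dim Ccl9 probe and on the processing. Ccl9 by gene was at -1.80 with its brighter probe alone, -1.74 without the offset, -1.90 in the series table and -2.34 with the processed signals, each below the -1.55 to -1.53 of Ccl6 in the same settings and the -1.05 to -1.02 of Ccl22. With its brighter probe, Ccl9 differed from Ccl22 by -0.78, with 10 of 12 rats lower (unadjusted exact p = 0.020), and differed from Ccl6 by -0.26 (unadjusted exact p = 0.20). Leaving aside Ccl17 with Ccl22, whose rats fell into clusters, Ccl2 with Ccl7 was the pair past the threshold for Pearson's r after adjustment over the 36 pairs. Rat 9 was the lowest rat for Ccl3, Ccl6 and Ccl9, rat 11 for Ccl17 and Ccl22, and rat 3 for Ccl2 and Ccl7.

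The orientation of the dyes moved some members. Between both arrays of a rat, 5 of the 12 member probes differed at an adjusted p under 0.05 (limma on the within-rat differences), against 52.0% of all probes. The largest difference was that of Ccl3 probe 1, which was higher by 0.46 in 12 of 12 rats when the allogeneic sample was in Cy5 (exact p = 0.000488). For Ccl17 it was 0.27 in 12 of 12 rats. Ccl6, Ccl20, Ccl22 and the probes of Ccl7 and Ccl9 did not pass this test. Without rat 10, whose arrays differed most, the orientations differed for Ccl6 by 0.15 (exact p = 0.0352), for the Ccl7 probes by 0.08 and 0.11 (exact p = 0.00195 and 0.00391) and for Ccl20 by 0.13 (exact p = 0.00293), without adjustment. An additive dye effect cancels in the mean of both arrays.

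**Figure D4:**
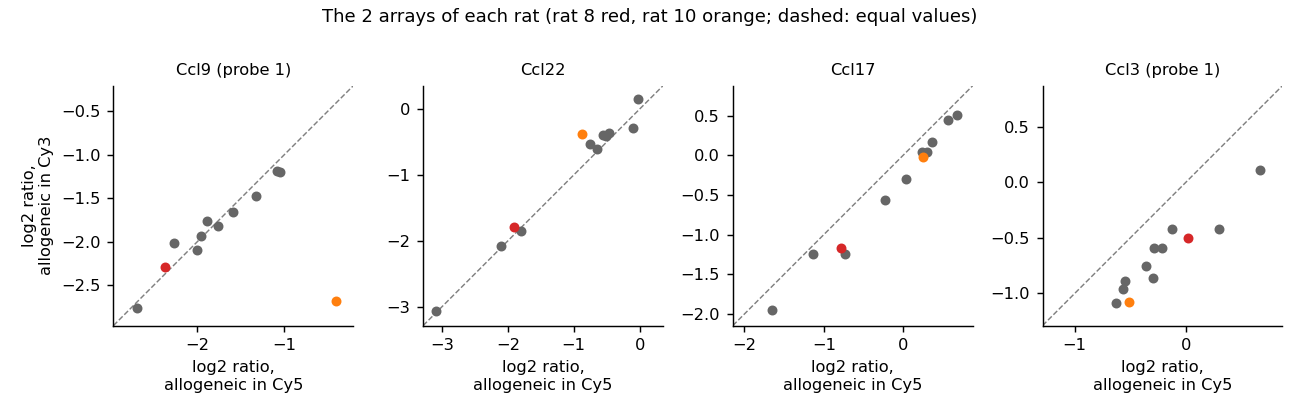
Log2 ratio of the allogeneic over the syngeneic explant on the array with the allogeneic sample in Cy5 (x axis) and in Cy3 (y axis) for 4 probes, 1 point per rat. Points on the dashed line have equal values; rat 10 (orange) is far off it for Ccl9, the Ccl22 points are spread along it, and all points of Ccl3 probe 1 lie under it.

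Each slide held both samples of 4 rats. The slide means were -0.95, -1.21 and -1.31 for Ccl9 and -1.35, -1.52 and -1.75 for Ccl6 on slides 1, 2 and 3. For Ccl22 they were -0.76, -0.73 and -1.57, for Ccl3 -0.49, -0.55 and -0.94, and for Ccl5 -0.11, -0.22 and -0.35. All of these were below 0 on every slide. For Ccl7 they were -0.34, 0.29 and -0.06 (exact permutation of slide labels p = 0.0355, limma F test adjusted p = 0.921). A limma F test for slide called 0% of all probes, with 217 at an unadjusted p under 0.05. With the slide as a block the same numbers of members passed, 7 probes and 5 genes.

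Other CC ligands and the CC receptors were taken from lists. Of 6 further ligands measured, 2 were higher and 0 lower, where 16.3% of all genes changed in either direction. Ccl27, a ligand that keratinocytes make and that draws skin-homing T cells, had 0.19 in the lowest rat, 0.57 at the median and 1.73 in the highest rat. With all 12 rats above 0, its mean was 0.65 ± 0.11 (adjusted p = 0.00196, limma by gene). Ccl21, the Ccr7 ligand of lymphatic vessels, was higher by 0.26 ± 0.07 (adjusted p = 0.0325, limma by gene), with 11 of 12 rats above 0. The call of Ccl21 was lost with the slide as a block (adjusted p = 0.0531, limma) and when any 1 of 8 rats was left out. Ccl11, Ccl24, Ccl25 and Ccl28 had mean log2 ratios between -0.03 and 0.04 and did not pass.

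Of 11 receptors described here, 2 were lower and 0 higher, where 7.60% of all genes were lower and 16.3% changed in either direction. Ccr1, the receptor of Ccl3, Ccl5, Ccl6 and Ccl9, was at -0.35 ± 0.07 with 11 of 12 rats below 0 (adjusted p = 0.00527, limma by gene). Ccr6, the receptor of Ccl20, was close to the threshold at -0.18 ± 0.06 (adjusted p = 0.0498, limma by gene) and lost the call with the processed signals and without any 1 of 8 rats. Its 6 probes disagreed, with means from -0.38 to -0.03. The probe at -0.04 was above background on only 2 of 24 arrays in the allogeneic and 4 in the syngeneic sample. Ccr2, the receptor of Ccl2, was at -0.04 and Ccr4, the receptor of Ccl17 and Ccl22, at -0.06, and neither passed. Ccr7 was at -0.25 ± 0.11 (adjusted p = 0.145, limma by gene). Ccr3, Ccr8, Ccr9, Ccrl2, Ccr1l1 and Ackr2 lay between -0.07 and 0.07. Of 12 other chemokine ligands measured, Pf4 (-0.91) and Cxcl2 (-0.79) were lower, and Ppbp (0.40) and Cxcl9 (0.34) were higher. Of 8 other chemokine receptors Cxcr2 (0.15) and Cxcr5 (0.06) were higher. The Cxcr5 call rested on its custom probes, which were at 0.05 to 0.08. Its other probe was at -0.02 and did not pass (adjusted p = 0.585, limma).

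**Figure D5:**
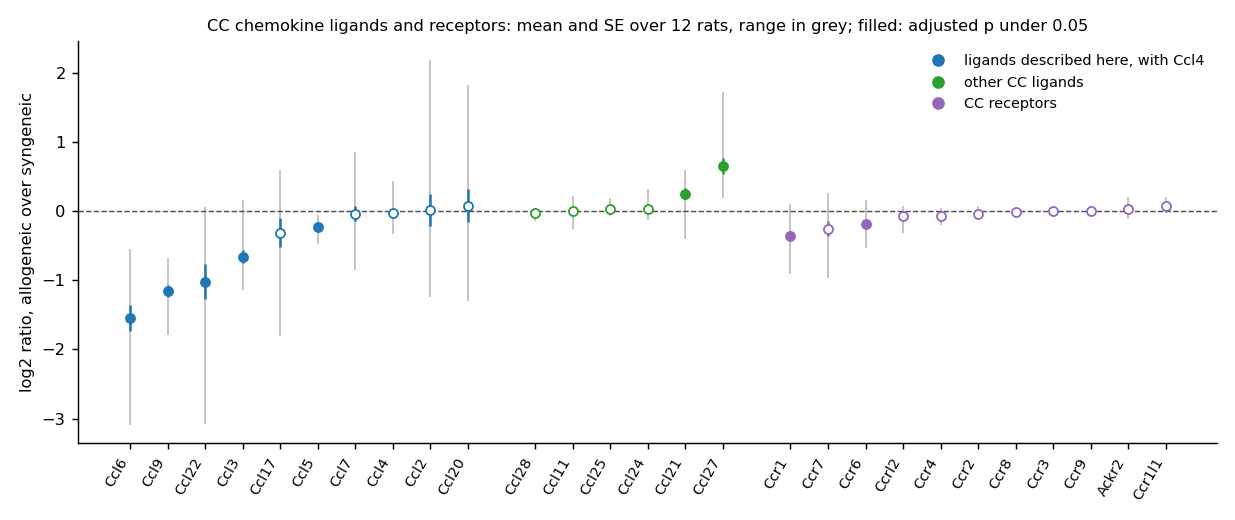
Mean log2 ratio (allogeneic over syngeneic, y axis) with its SE over 12 rats for the ligands described here with Ccl4 (blue), other CC ligands (green) and CC receptors (purple), with the range over rats in grey. Filled points had an adjusted p under 0.05: 5 blue points, Ccr1 and Ccr6 are below 0, and Ccl21 and Ccl27 are above.

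The genes with the most similar log2 ratios over the 12 rats were named for each lowered member, out of 6212 genes above background. For Ccl6 they were Emb (r = 0.91), Ly49i7 (0.90), Fcgr3 (0.90), Clec4e (0.89) and Pf4 (0.89). For Ccl9 they were Ifngr2 (0.92), Dok1 (0.92), Vav1 (0.92) and Pstpip1 (0.91). Fcgr3 encodes an Fc receptor of myeloid and NK cells, Clec4e the lectin Mincle, and Vav1 a signaling protein of blood cells. For Ccl5 they were Lck (0.91), Batf (0.91), Camk4 (0.90), LOC679957 (0.89) and Ptpn18 (0.88). Lck is the kinase of the T cell receptor complex. For Ccl22 they were Ccl17 (0.96), Pitpnm3 (0.90), LOC687813 (0.90), LOC301132 (0.88) and Cd83 (0.87), the last a marker of mature dendritic cells. For Ccl3 they were Sipa1l3 (0.87), Gprc5a (0.86), Nfya (0.84), Gdf15 (0.84) and Or10s1 (0.82). These values describe 12 points that share their arrays, and for Ccl22 the 4 rats named above stood apart from the others.

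Markers of cell types were read in the same fit by gene, in which 7.60% of all genes were lower and 16.3% changed in either direction. Of 14 macrophage markers measured, 7 were lower and 2 higher (C1qa and C1qc), with a median of -0.34. Their mean in a rat was between -1.05 and -0.06, below 0 in all 12 rats. Trem2 was at -1.69, Cd36 at -1.41, Ctss at -1.40, Aif1 at -1.27, Spi1 at -0.67, Itgam at -0.60 and Csf1r at -0.22, while Adgre1 (-0.07) and Cd14 (0.01) did not pass. Of 11 T cell markers 5 were lower (mean in a rat -0.88 to 0.04), and of 9 NK cell and cytotoxic markers 4 (-0.60 to -0.10). Of 9 dendritic and Langerhans cell markers 3 were lower and 2 higher (-0.37 to -0.02), but of these Lamp3 was above background on only 1 and Cd80 on only 8 of 24 arrays. Among the lower ones was Itgad (-0.57), although the list had named Itgax. None of 4 B cell, 3 mast cell, 4 neutrophil and 3 keratinocyte markers passed. The keratinocyte markers Dsc3, Tp63 and Cdh1 were above background on all 24 arrays in at least 1 of the samples. Of 7 endothelial markers 3 were higher (0.03 to 0.38), and of 4 fibroblast markers 1 was higher and 1 lower (-0.08 to 0.45). In bulk samples fewer cells of a type and less RNA per cell cannot be told apart, and the part of cell types in the results of the members was not tested.

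The promoters of Ccl6 and Ccl9 are shown because these neighbors had the lowest mean log2 ratios of the members. They are the 250 bases before to 50 after the annotated start (RefSeq, GRCr8), with the letters TATAAA in capitals.
Ccl6 promoter, chr10:68883317-68883616, minus strand: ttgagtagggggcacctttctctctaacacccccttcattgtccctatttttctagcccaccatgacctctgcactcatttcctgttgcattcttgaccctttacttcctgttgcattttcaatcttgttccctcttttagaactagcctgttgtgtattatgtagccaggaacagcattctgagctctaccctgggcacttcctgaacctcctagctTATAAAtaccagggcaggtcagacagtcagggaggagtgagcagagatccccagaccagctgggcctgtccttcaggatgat
Ccl9 promoter, chr10:68868828-68869127, minus strand: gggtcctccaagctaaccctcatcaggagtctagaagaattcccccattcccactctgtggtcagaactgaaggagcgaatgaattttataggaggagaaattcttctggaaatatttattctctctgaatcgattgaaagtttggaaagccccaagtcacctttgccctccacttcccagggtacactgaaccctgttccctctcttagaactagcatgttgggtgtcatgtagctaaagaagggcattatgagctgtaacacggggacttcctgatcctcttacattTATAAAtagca
In Ccl6 TATAAA began at position -32 from the start, and in Ccl9 at position 39. The longest run of identical bases that both promoters share was 11 bases. No alignment that allows mismatches was made, so this run does not measure how alike the promoters are. Of the 6 members with a promoter in the table (Ccl6, Ccl7, Ccl9, Ccl17, Ccl20 and Ccl22), 3 held TATAAA on either strand (Ccl6, Ccl7 and Ccl9), where 14.2% of 33469 promoters of the same length did. The NF-kB motif was found in 2 of the 6 (Ccl9 and Ccl20), against 4.18% of all. The letters GAGGAA, the core of sites for the myeloid factor PU.1, were in 3 of the 6 (Ccl7, Ccl17 and Ccl20), against 27.6%. Of the 3 lowered members with a promoter in the table, Ccl22 held none of these motifs, and GAGGAA was found in none of the 3. A match of letters is a description and shows no binding, and a missing match says only that these letters are not in this window.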

How the data were processed

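RNA of 2 skin explants of each of 12 rats was measured on 24 two-color arrays (Agilent). The authors deposited 1 scanner file per array, in which the Feature Extraction software (version 9.5.1.1 per the file headers) gives mean and local background intensities of each spot, without normalization, and processed intensities after its own background subtraction and dye normalization. A table of log2 ratios for the whole series, with a column for each of the 24 arrays, was deposited as well. The titles of its samples read "Stimulated vs. NonStimulated" and do not state how the ratio was formed. All 24 columns correlated positively with the allogeneic over syngeneic ratio of the processed intensities (0.707 to 0.955), and their medians lay between -0.027 and 0.022. The background treatment behind them stays unknown. The submitters' processing notes name limma. The labels and the methods name different labeling kits.

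The values were computed with limma 3.58.1 in R 4.3.3. Files were read with the package data.table (version 1.17.8), and blocks were estimated with statmod 1.5.0. Mean intensities were corrected by normexp with an offset of 50, which shrinks the ratios of dim probes, and by loess within each array. Control spots (536 of 15744) and spots marked as outliers (161 to 228 per array) were left out. Arrays were turned to allogeneic over syngeneic by their dye labels, spots of a probe and then the 2 arrays of a rat were averaged, and the mean over 12 rats was tested against 0 by limma with Benjamini-Hochberg adjustment over 8453 probes or 7250 genes. The number of rats limits the precision. Each array holds both explants of a rat, so the comparison is within rats. Levels were scaled between arrays by Aquantile.

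Differences between probes, genes and dye orientations were tested by exact two-sided permutation of the signs over 12 rats, and slides by exact permutation of their labels. Correlations used 100000 permutations. The scripts were tested on simulated data. Genes were named by RefSeq accession where it matched (4685 probes) and otherwise as in the files. Named genes are all members, all measured genes of 2 lists (other CC ligands and CC receptors), other chemokine genes that passed, and up to 5 genes most like each lowered member. Some genes that these rules name are not reported here. The members, lists and markers were chosen with earlier results of these data known, and all counts over them are descriptions. Markers named singly were chosen after their values were seen. Alternatives covered the background correction, normalization, dye orientation, a filter on dim probes, outlier spots, slide, test, series table, the combination of probes, scaling of levels and leaving out each rat. The bright array of rat 10, rats 8 and 10 together, and the offset were left out in alternatives added after the data were seen.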

Additional observations from a re-analysis of the deposited data

Results flagged for a closer look

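The arrays with the allogeneic sample in Cy5 and those with it in Cy3 gave different log2 ratios for 5 member probes (limma on the within-rat differences, adjusted over all probes). The Cy5 orientation was higher by 0.21 for Ccl2 (11 of 12 rats), by 0.46 and 0.30 for probes 1 and 2 of Ccl3 (12 of 12 rats each), by 0.20 for Ccl5 (11 of 12 rats) and by 0.27 for Ccl17 (12 of 12 rats). In both orientations the mean log2 ratios of Ccl3 and Ccl5 were below 0, at -0.21 and -0.67 for Ccl3 probe 1, -0.73 and -1.03 for Ccl3 probe 2, and -0.13 and -0.33 for Ccl5. Without rat 10 the difference was 0.28 for Ccl2, 0.45 and 0.21 for Ccl3 and 0.17 for Ccl5.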

How the results depend on the processing

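The 7 lowered probes and 5 lowered genes were found in the same numbers with processed signals, with no background correction, with plain subtraction and the same offset, with median centring, with the series table, with outlier spots kept, after the filter on dim probes, with the slide as a block, with 24 arrays and the rat as a random block, with the exact permutation test, without any 1 rat (range 7 to 7 and 5 to 5) and, in alternatives chosen after seeing the data, without the bright array, without rats 8 and 10 or without the offset. With the allogeneic sample in Cy5 only, 5 probes and 4 genes were called. On slides 1, 2 and 3 alone, with 4 rats each, 1, 0 and 4 member probes and 1, 0 and 2 member genes passed by limma. The number of significant probes, 1459, was 2659 with Cy5 only, 2500 with Cy3 only, and 195, 7 and 281 on the slides alone, and 1155 to 2087 without 1 rat. The comparison is paired throughout, since every ratio is within a rat, and no separate replicate block could be added. Genes that did not pass changed sign: Ccl2 was -0.089 with Cy3 only, -0.026 with median centring, -0.50 on slide 1 and -0.17 without rats 8 and 10 (-0.18 to 0.13 without 1 rat), Ccl20 was -0.020 on slide 1 and -0.14 without rats 8 and 10 (-0.080 to 0.20 without 1 rat), and Ccl7 by gene was 0.29 on slide 2 (-0.12 to 0.038). Ccl7 probe 1 was 0.32 on slide 2 and 0.0080 without the bright array (-0.10 to 0.061), and probe 2 was 0.26 on slide 2 (-0.13 to 0.014). The difference between the Ccl9 probes turned to 0.23 with processed signals. The cause of these changes was not tested. Channel levels without Aquantile moved by less than 1 SD for the members.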
